A study of Mus musculus with 20 samples.

Results

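Histone genes were examined in total RNA of C2C12 myotubes. The members are the 86 genes, of 26722 in the count table, whose mouse symbol begins with Hist1h to Hist4h, H1f, H2a, H2b, H3c, H3f, H4c or H4f. They were separated by their GENCODE M21 entries into 63 clustered genes (protein-coding genes whose older name begins with Hist), 13 variant genes (other protein-coding genes) and 10 pseudogene or antisense entries. The clustered genes were 6 of H1, 16 of H2A, 17 of H2B, 11 of H3 and 13 of H4, and the variants were 4 of H1, 7 of H2A and 2 of H3. After removal of genes with low counts, 56 clustered genes, 8 variants and 6 pseudogene or antisense entries were tested. The 7 clustered genes left out had at most 10 counts in any library, and the 5 variants left out had at most 4.

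C2C12 is a mouse myoblast line that fuses into myotubes when serum is withdrawn. All cultures were differentiated for 5 days and treated for 16 h, and each of the 5 treatments had 4 biological replicates, which gives 20 libraries. The treatments act on MuSK, the receptor tyrosine kinase of the neuromuscular synapse that is switched on when neural agrin binds its co-receptor Lrp4. Every culture received an antibody at 7.7 nM. The control group received b12 hIgG4, an antibody used as negative control, and the bivalent_13-3B5 group received 13-3B5 hIgG4, a MuSK antibody that activates the receptor. The other groups received 0.1 nM agrin as well, together with b12 (the agrin group) or with the antibodies 13-3B5xb12 or 11-3F6xb12, which bind MuSK through a single arm and are labelled as inhibiting. All cultures are of 1 cell line, and no label states what a replicate number stands for.

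Nucleosomes hold DNA around a core of H2A, H2B, H3 and H4, and the linker histone H1 binds where DNA enters and leaves. The clustered genes supply these proteins when DNA is copied, and their mRNAs end in a conserved stem-loop bound by Slbp in place of a poly(A) tail, so that they are captured in total RNA and mostly missed by poly(A) selection. Variant genes such as H3f3a, H3f3b, H2az1 and H1f0 make polyadenylated mRNA outside S phase as well, and replacement variants are the main source of new histone in cells that have left the cell cycle, as fused myotubes have. Unfused reserve cells remain in such cultures. In bulk RNA, fewer cells of a type and less RNA per cell cannot be told apart.

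The histone 3′ stem-loop, searched by that name as 16 bases in all annotated transcripts, was present in 44 of the 63 clustered genes (69.8%), in 1 of the 13 variants, H2ax, and in 0 of the 10 pseudogene or antisense entries. It was present in 54 of 26667 genes of the table (0.202%). Of the 44, 24 genes carried one and the same stem-loop, and none of those was an H4 gene, whereas the 12 H4 genes with a match had stems of their own. The sequences below, from GENCODE M21 transcripts written as DNA from 5′ to 3′, show the stem-loop in capitals with 5 bases on each side; they are the genes whose counts are described further on and 1 example of each H4 form.
H3c2: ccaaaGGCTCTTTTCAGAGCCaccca
H1f2: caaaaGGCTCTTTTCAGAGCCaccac
H2bc14: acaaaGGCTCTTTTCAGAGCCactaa
H2bc12: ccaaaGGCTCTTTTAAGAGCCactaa
H4c6: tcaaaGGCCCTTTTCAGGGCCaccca
H4c8: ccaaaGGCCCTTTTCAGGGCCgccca
H4c11: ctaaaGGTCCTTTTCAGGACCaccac
H4c14: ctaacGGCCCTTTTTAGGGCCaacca
H4c1: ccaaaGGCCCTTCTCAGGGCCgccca
H2ax: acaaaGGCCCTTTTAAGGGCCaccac
The stems of H3c2, H1f2 and H2bc14 open with GGCTC and those of the H4 genes with GGCCC or GGTCC, and the match in H2ax, an H2A variant, has the H4-type stem. The 19 clustered genes without a match include models that hold the coding sequence and end before a 3′ end. For those models the missing match says nothing about the mRNA. Others are longer, such as H2bc21 with 2620 bases and H2bc4 with 1156, and why they had no match was not tested. In other models the annotated transcript runs past the stem-loop, by 840 bases in H1f2, 1153 in H1f4, 2010 in H2ac6 and 4884 in H1f3.

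Most clustered genes lie in 1 cluster on chromosome 13 (52 genes, GRCm38 positions 21715763 to 23764406), with 8 genes on chromosome 3 (96219865 to 96270132), 2 on chromosome 11 and 1, H4f16, on chromosome 6 (136801553 to 136804415). In 11 places an H2A and an H2B gene stand head to head with 175 to 301 bases between them. RefSeq promoter windows of GRCm38.p6, which run from 250 bases before to 50 bases after a gene's start, were matched for 57 clustered genes and 12 variants. TATAAA on either strand was in 56.1% of the clustered windows, in 16.7% of the variant windows and in 14.2% of all 27025 windows. CCAAT on either strand was in 84.2%, 66.7% and 37.9%, respectively. It was in every window of clustered H1 (6), H2A (16), H2B (14) and H3 (9), but in 3 of 12 H4 windows (25%). The windows of the 3 clustered genes with the smallest p-values by replicate number (below) are shown 5′ to 3′ on the gene's strand, with TATAAA and CCAAT, or their reverse complements, in capitals.
H3c2 (chr13:23752095-23752394, + strand): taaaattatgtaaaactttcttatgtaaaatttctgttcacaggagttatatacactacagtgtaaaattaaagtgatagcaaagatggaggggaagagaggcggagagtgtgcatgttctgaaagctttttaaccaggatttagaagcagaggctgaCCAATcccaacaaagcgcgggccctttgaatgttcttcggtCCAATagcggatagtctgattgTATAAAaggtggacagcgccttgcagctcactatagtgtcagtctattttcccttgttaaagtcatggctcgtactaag
H2bc13 (chr13:21716134-21716433, - strand): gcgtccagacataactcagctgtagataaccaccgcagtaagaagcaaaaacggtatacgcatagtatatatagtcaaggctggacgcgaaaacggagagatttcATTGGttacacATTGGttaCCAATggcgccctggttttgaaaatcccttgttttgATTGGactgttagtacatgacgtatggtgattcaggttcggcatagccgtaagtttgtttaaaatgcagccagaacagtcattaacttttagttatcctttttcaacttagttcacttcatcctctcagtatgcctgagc
H4c6 (chr13:23551619-23551918, - strand): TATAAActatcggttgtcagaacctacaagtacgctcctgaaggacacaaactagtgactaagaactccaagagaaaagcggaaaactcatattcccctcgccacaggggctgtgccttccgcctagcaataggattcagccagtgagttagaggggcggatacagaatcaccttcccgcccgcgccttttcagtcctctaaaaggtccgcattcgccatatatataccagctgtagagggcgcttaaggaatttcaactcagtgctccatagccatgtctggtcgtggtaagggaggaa
H3c2 has TATAAA 29 bases before its start behind 2 CCAAT matches, H2bc13 has 4 CCAAT matches on the 2 strands and no TATAAA, and H4c6 has no CCAAT and 1 TATAAA at the far end of the window. A match is a run of letters and was not tested as a binding site.

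Counts are given as CPM, the usual depth-scaled count, here with library totals adjusted by the TMM factors of edgeR. The 63 clustered genes summed to 920 ± 126 CPM (SD over 20 libraries) and the 13 variants to 928 ± 56 CPM, so that the ratio of both lay near 1, between 0.752 in agrin_11-3F6xb12 replicate 4 and 1.26 in agrin replicate 2. The clustered sum was thus more variable between libraries, from 720 CPM in control replicate 3 to 1214 in agrin replicate 2, than the variant sum, from 789 in control replicate 2 to 999 in agrin_11-3F6xb12 replicate 3. Clustered genes took 0.0754% to 0.119% of all counts. Total counts per library ranged from 18424881 to 23343903, and a library held between 14078 and 25868 clustered histone counts.

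**Figure D1:**
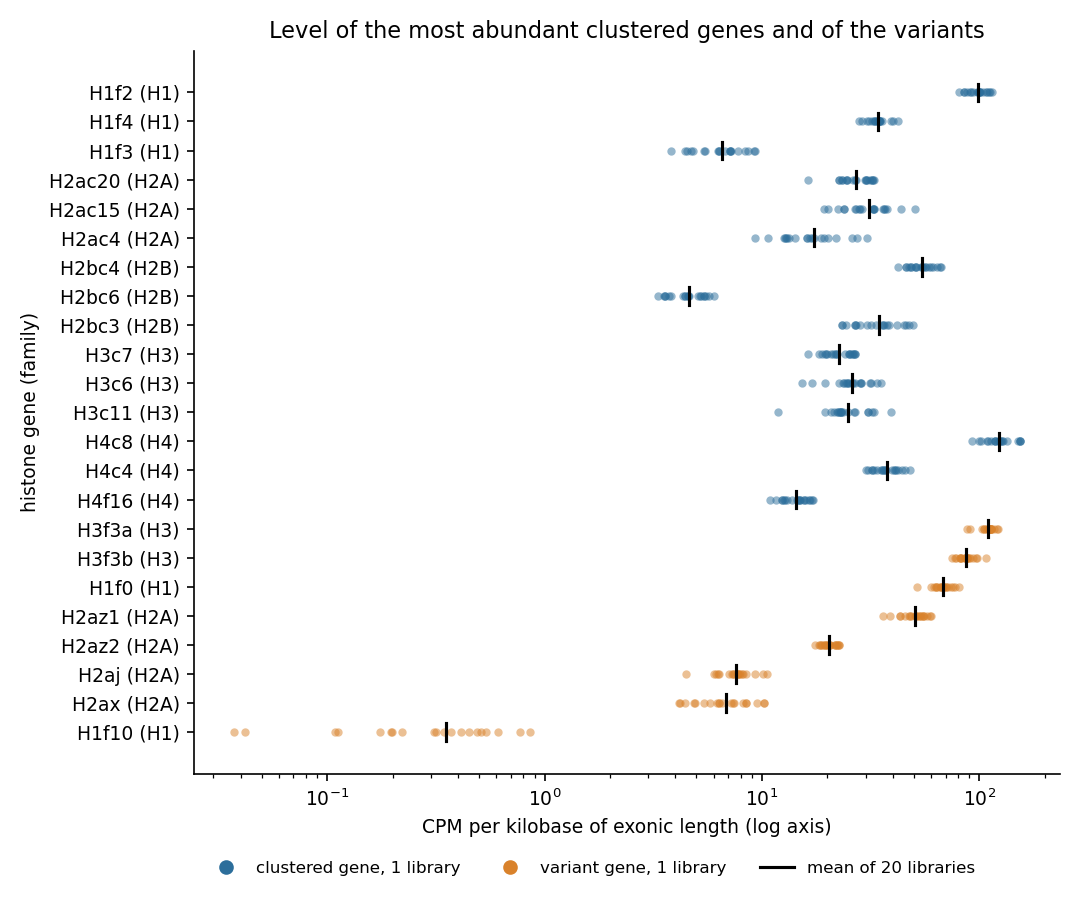
CPM per kilobase of exonic length, on a log axis, of the 3 clustered genes with the highest mean CPM in each family (blue) and of the 8 tested variants (orange); each point is 1 of 20 libraries and the bar is their mean. H4c8, H3f3a and H1f2 stand highest, and H1f10 lies far under all others.

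Levels between genes are compared here per kilobase of exonic length, taken over all annotated transcripts of a gene. The values and shares therefore depend on the models, and a model longer than the mRNA in use lowers its value. The lengths were 1560 bases for H1f2, 7425 for H1f3 and 1930 for H1f4, whose models run past the stem-loop (above). They were 3504 for H3f3a and 2976 for H3f3b. Among linker histones, H1f2, the gene for H1.2, had a mean level of 98.3 CPM per kb and H1f4, for H1.4, had 34.1. H1f0, the variant that builds up in differentiated cells, stood between them at 67.8 and made up 27.6% ± 3.23 of the summed H1 level per kb. H1f10, a further H1 variant, had 0.354 CPM per kb and 1 to 25 counts per library, so its values carry large counting error. Of the core histones, H4c8 was the most abundant clustered gene at 124 CPM per kb (range over libraries 92.2 to 154), ahead of H2bc4 at 54.2 and H4c6 at 44.9. The most abundant clustered H2A gene by count, H2ac20, had 27.1 and the first by count in H3, H3c7, had 22.6. The ranges of H2ac20 (16.3 to 32.6) and H3c7 (16.3 to 26.9) overlapped, and those of H4c8 and H2bc4 did not.

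By this measure the replacement H3 genes were near the leading clustered genes. H3f3a and H3f3b, which encode the same H3.3 protein, had 109 and 87.0 CPM per kb with overlapping ranges (87.7 to 122 and 74.7 to 107). Together they made up 55.7% ± 6.10 of the summed H3 level per kb, from 45.9% in agrin replicate 2 to 67.9% in control replicate 3. H2az1, for the variant H2A.Z that marks promoters, had 50.3, and H2az2, for its second isoform, had 20.3. H2aj, an H2A variant, and H2ax, whose protein is phosphorylated at DNA breaks, had 7.61 and 6.81. The processed pseudogene H2af-ps2 was counted at 93.8 CPM per kb, above most coding members, over a model of only 339 bases.

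How far these levels belong to single genes is limited by their similarity. Of the 63 clustered genes, 13 shared no 150-base stretch, the read length, with another annotated gene, 19 shared at least 50% of theirs, and the median was 24.4%. H1f2, H1f3 and H2bc14 shared none, H4c6 shared 1.24%, H4c8 28.0% and H3c2 49.5%. How reads that match several genes were counted is not given in the sources used here, so the split of counts between near-identical copies is uncertain. H3f3aos overlaps H3f3a on the opposite strand and its counts depend on a strand setting that is likewise not given.

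The first comparisons ask whether agrin or an activating antibody changed histone transcripts and whether the monovalent antibodies altered the agrin state. No clustered gene and no variant passed the test in any of the 8 treatment comparisons (edgeR quasi-likelihood F-test, two-sided, Benjamini-Hochberg adjusted p under 0.05). In each of them 0 of 56 clustered genes and 0 of 8 variants were called, against 0% of the 14605 genes tested. The same 0 was found in all 240 counts made under other settings. The smallest adjusted p among the 16 pairs of a comparison and a class was 0.992, so that what follows gives sizes and unadjusted p-values only. The precision was limited for single clustered genes: the median standard error of a log2 difference was 0.28 for clustered genes and 0.10 for variants in the comparison of agrin with control, against 0.16 over all genes.

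**Figure D2:**
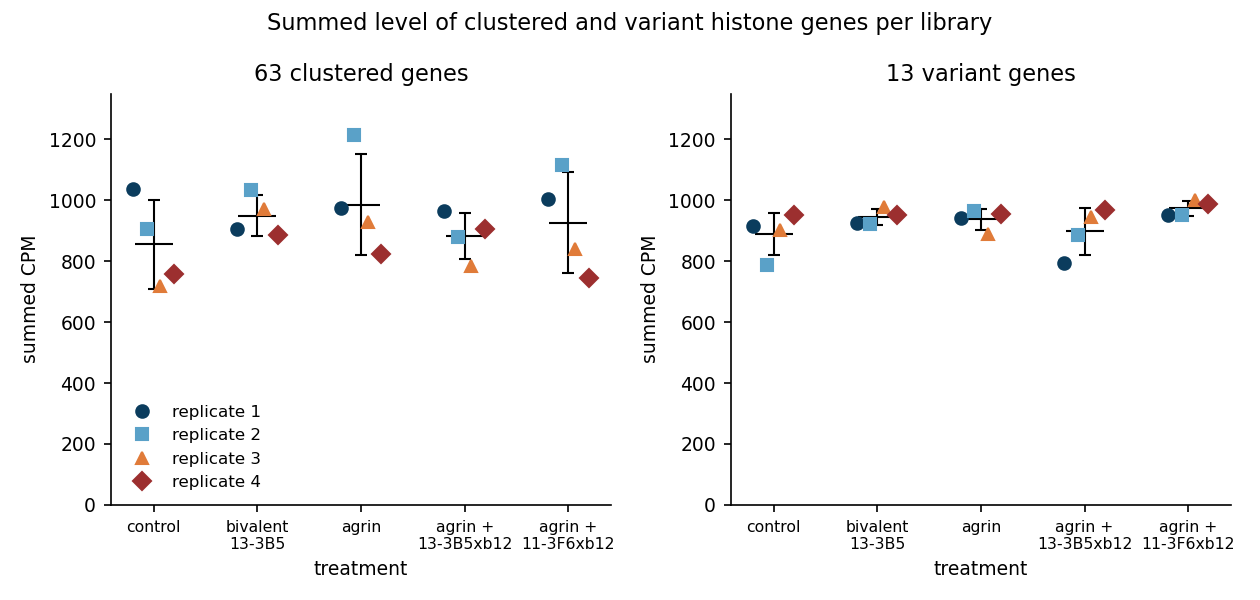
Summed CPM of the 63 clustered genes (left) and the 13 variants (right) in each library by treatment; symbols mark the replicate number, the black bar is the mean of 4 libraries and its whiskers 1 SD. The treatment means of the clustered sum lie between 855 and 985 CPM, and within control, agrin and agrin_11-3F6xb12 the libraries of replicates 1 and 2 lie above those of 3 and 4.

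In agrin against control most clustered genes had positive differences. The clustered sum was 985 ± 165 CPM with agrin (973, 1214, 928 and 824 in replicates 1 to 4) and 855 ± 145 CPM in the control (1035, 906, 720 and 758). These ranges overlapped, and the agrin library was the higher one in 3 of 4 replicate numbers. By gene, 48 of 56 clustered genes had a positive log2 difference (85.7%, against 50.1% of all genes tested), and their median was 0.28 against 0.00 over all genes. At an unadjusted p under 0.05 there were 7 of 56 clustered genes, all higher with agrin, a share of 12.5% against 2.85% of all genes. The families had medians of 0.24 (H1), 0.27 (H2A), 0.32 (H2B), 0.37 (H3) and 0.18 (H4), and all 12 H4 genes were positive.

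This median rested in part on single libraries. Without agrin replicate 2, the library with the highest clustered sum, it was 0.08 with 36 of 56 genes positive, without control replicate 4 it was 0.15, and without control replicate 3 it was 0.17. Of the 8 variants, 7 had positive differences with a median of 0.15, and 0 had an unadjusted p under 0.05. The S phase and division list had a median of 0.09 with 21 of 30 positive and 0 at an unadjusted p under 0.05, and the 17 tested genes of histone mRNA processing had a median of -0.00. The liver markers of agrin replicate 3 were above those of all other libraries (17.9 CPM summed over 6 genes, against 0.00 to 0.858 elsewhere), and without that library and the other 2 that stood apart on the principal components the clustered median was 0.36.

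H2bc4, an H2B gene of the chromosome 13 cluster, was the 1 clustered gene whose agrin libraries all lay above all control libraries, which held for 0.76% of all genes. Its CPM were 71.1, 77, 62.9 and 63.7 with agrin and 62.1, 53.1, 56.1 and 54.7 in the control, in the order of the replicate numbers. The groups are close, with 62.9 as the lowest agrin value and 62.1 as the highest control value, and the log2 difference was 0.28 ± 0.11 (SE, unadjusted p = 0.0123, adjusted p = 1.00). H2ac10, an H2A gene with few counts, had the smallest p of this comparison at 0.005. Its CPM were 3.86, 5.35, 4.98 and 1.17 with agrin and 2.72, 1.49, 0.665 and 0.498 in the control, a log2 difference of 1.51 ± 0.49 (SE, adjusted p = 1.00). The groups overlapped through agrin replicate 4, and 58.4% of its 150-base stretches occur in other H2A genes.

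With bivalent 13-3B5 the clustered sum was 949 ± 67.7 CPM, and 46 of 56 clustered genes had positive differences from the control with a median of 0.21 (50.1% and 0.00 over all genes). Of them 6 had an unadjusted p under 0.05, all higher (10.7%, against 2.77% of all genes). This comparison uses the same control libraries as the one above, so the 2 sets of values are not independent. Without control replicate 3 the median was 0.08, without control replicate 4 it was 0.13 and without bivalent_13-3B5 replicate 2 it was 0.14. H3c11, an H3 gene, had the smallest p: it read 12.6, 9.25, 16.1 and 9.51 CPM with the antibody and 9.20, 9.52, 4.86 and 8.51 in the control (log2 difference 0.56 ± 0.21 SE, unadjusted p = 0.0106, adjusted p = 0.999). H2ac21, an H2A gene of the chromosome 3 cluster, was the 1 clustered gene with no overlap (1.73, 3.14, 2.50 and 3.17 against 1.14, 1.72, 0.972 and 1.49 CPM, log2 difference 0.98 ± 0.37), where 0.986% of all genes lay wholly above the control. The groups nearly met, and with library totals alone they overlapped.

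Set against agrin, bivalent 13-3B5 gave a clustered median of -0.07 with 19 of 56 genes positive, and 1 of 56 at an unadjusted p under 0.05 (2.39% of all genes). Without agrin replicate 2 the median was 0.06 with 41 of 56 positive, so its sign depended on that library. The gene at an unadjusted p under 0.05 was H2aw, an H2A gene on chromosome 11, with 3.07, 3.01, 3.86 and 3.85 CPM with the antibody and 2.54, 1.36, 1.86 and 2.41 with agrin. All 4 antibody libraries lay above all agrin libraries, as in 1.16% of all genes (log2 difference 0.75 ± 0.29 SE, unadjusted p = 0.0158, adjusted p = 1.00). The gene model of Trim17 overlaps it, and 28.0% of its 150-base stretches are shared with Trim17. H1f10 was the 1 variant with no overlap, where 1.22% of all genes lay wholly below agrin, and it read 0.24, 0.137, 0.132 and 0.385 against 0.454, 0.939, 0.422 and 1.04 CPM, values that stand on 3 to 25 counts per library.

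**Figure D3:**
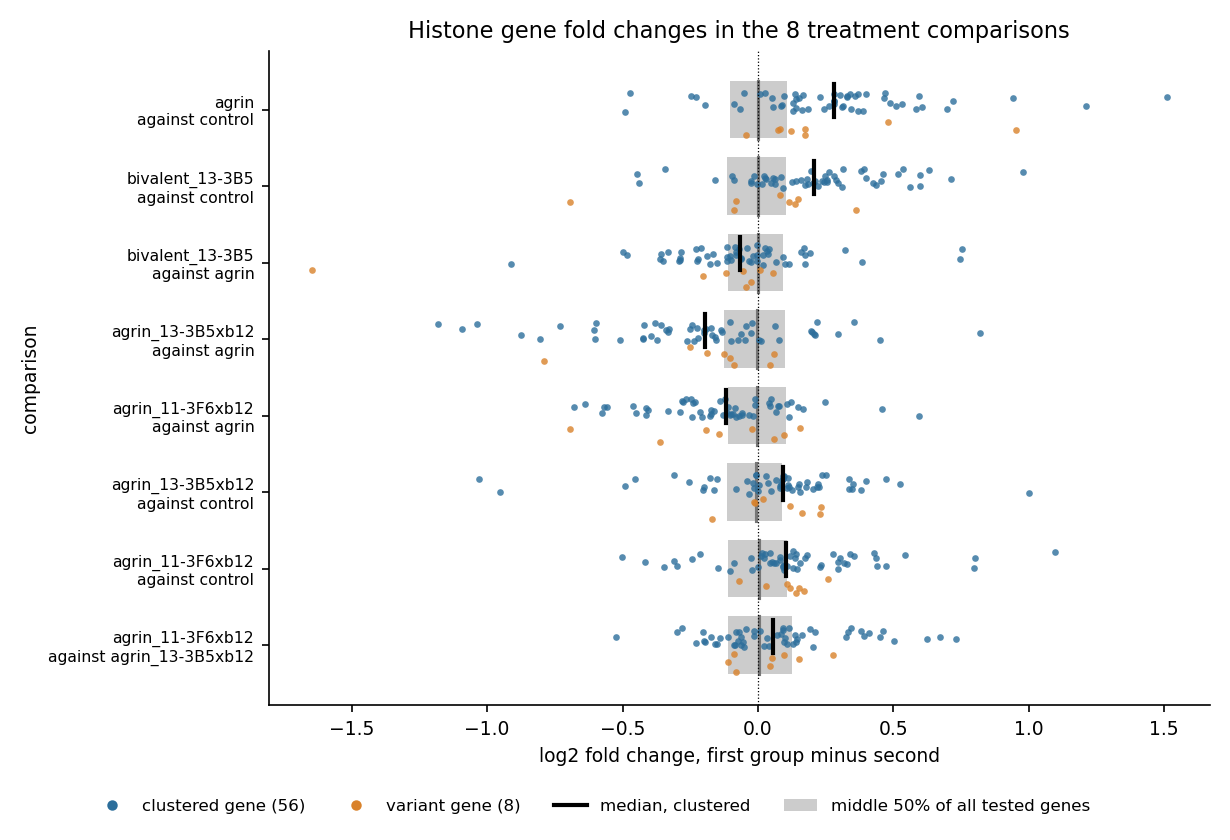
Log2 fold change (first group minus second) of the 56 clustered genes (blue) and 8 variants (orange) in the 8 comparisons; the black bar is the clustered median, and the grey box spans the middle 50% of all 14605 genes tested with their median as a line. The clustered medians are 0.28 and 0.21 for agrin and for bivalent 13-3B5 against control, and -0.19 and -0.12 for the monovalent antibodies against agrin.

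The monovalent antibodies given with agrin were compared with agrin alone. With 13-3B5xb12 the clustered sum was 883 ± 75.8 CPM, 13 of 56 clustered genes had positive differences and the median was -0.19 (48.5% and -0.01 over all genes). At an unadjusted p under 0.05 there were 10 of 56, of which 9 were lower and 1, H2aw, was higher (17.9%, against 3.83% of all genes). Of those, 6 were H2B genes, among 14 tested, with a family median of -0.34. Without agrin replicate 2 the clustered median was -0.02 with 25 of 56 positive, without 13-3B5xb12 replicate 3 it was -0.13, and without agrin replicate 4 it was -0.30. H2bc15, an H2B gene, had the smallest p, with 5.30, 2.80, 3.48 and 4.10 CPM against 5.23, 11.5, 7.0 and 3.75 with agrin (log2 difference -0.81 ± 0.28 SE, unadjusted p = 0.0071, adjusted p = 0.999). Agrin replicates 2 and 3 were the highest of these libraries, and the difference was -0.44 without agrin replicate 2.

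With 11-3F6xb12 the clustered sum was 926 ± 166 CPM, 14 of 56 genes had positive differences from agrin and the median was -0.12 (49.0% and -0.00 over all genes). There were 2 of 56 at an unadjusted p under 0.05, both lower (3.57%, against 3.33% of all genes). Without agrin replicate 2 the median was 0.05, so its sign depended on that library. It was -0.02 without 11-3F6xb12 replicate 4, -0.21 without its replicate 1, -0.24 without its replicate 2 and -0.23 without agrin replicate 4. H2bc14 had the smallest p, and it is described across all treatments because no 150-base stretch of it is shared. It read 16.5, 20.5, 18.4 and 12.3 CPM with agrin, 12.4, 15, 8.74 and 8.64 in the control, 10.2, 17.2, 14.5 and 11.1 with bivalent 13-3B5, 10.1, 13.2, 10.6 and 10.7 with 13-3B5xb12, and 14.5, 14.2, 10.2 and 6.82 with 11-3F6xb12. Within each replicate number agrin was the higher library against control and against both monovalent antibodies. H2bc14 was chosen by its p for 11-3F6xb12 against agrin, so the order of these groups follows in part from that choice. The share of all genes with this order was not counted. The log2 differences were 0.60 ± 0.22 for agrin minus control, -0.60 ± 0.22 for 13-3B5xb12 minus agrin and -0.57 ± 0.22 for 11-3F6xb12 minus agrin (SE, unadjusted p = 0.013, 0.0122 and 0.0169, adjusted p = 1.00, 0.999 and 1.00), and these 3 share the agrin libraries.

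Against control, the clustered medians were 0.09 with agrin and 13-3B5xb12 (1 of 56 at an unadjusted p under 0.05, against 2.39% of all genes) and 0.10 with agrin and 11-3F6xb12 (2 of 56, against 3.25%). Both rested on single libraries. The median with 13-3B5xb12 was -0.02 with 24 of 56 positive without control replicate 3, 0.01 without control replicate 4 and 0.03 without 13-3B5xb12 replicate 1, and it was 0.21 and 0.17 without control replicates 1 and 2. The median with 11-3F6xb12 was 0.00 with 29 of 56 positive without 11-3F6xb12 replicate 2, and 0.03 and 0.05 without control replicates 3 and 4. It was 0.24 without control replicate 1, 0.17 without control replicate 2 and 0.22 without 11-3F6xb12 replicate 4, and 0.01 with 30 of 56 positive when libraries were scaled by their totals. H2ac21 had the smallest p with 13-3B5xb12 (1.51, 2.69, 2.63 and 3.88 CPM, log2 difference 1.00 ± 0.37 SE, unadjusted p = 0.0106). H2ac10 had it with 11-3F6xb12 (2.85, 4.6, 2.55 and 1.55 CPM, 1.1 ± 0.49, unadjusted p = 0.035). Both overlapped the control, and both adjusted p-values were 1.00. H2az2 was the 1 variant above all control libraries with either antibody, which held for 0.822% and 1.07% of all genes, at 30.2 ± 1.18 CPM in the control, 35.5 ± 1.94 with 13-3B5xb12 and 33.5 ± 1.86 with 11-3F6xb12 (SD, n = 4). The sum of the 13 variants was 973 ± 24.4 CPM with 11-3F6xb12 and 889 ± 69.8 CPM in the control (SD, n = 4), a ratio of 1.09. The 2 groups did not overlap, with 952 as the lowest value with the antibody and 950.3 as the highest in the control. In the other comparisons the groups overlapped for this sum. The TMM factors were 0.896 and 0.906 in 11-3F6xb12 replicates 1 and 2 and 1.05 and 1.06 in control replicates 2 and 3. With library totals alone, this sum and H2az2 with 11-3F6xb12 overlapped the control, so both separations depend on the scaling.

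Between the 2 monovalent antibodies, which share the b12 arm and differ in the MuSK arm, the clustered median was 0.05 for 11-3F6xb12 minus 13-3B5xb12 and -0.05 when libraries were scaled by their totals. It was also below 0 without 11-3F6xb12 replicate 1 (-0.02), without 11-3F6xb12 replicate 2 (-0.10) and without 13-3B5xb12 replicate 3 (-0.00), and it was 0.13 and 0.15 without 11-3F6xb12 replicates 3 and 4 and 0.09 without 13-3B5xb12 replicate 1. There were 2 of 56 clustered genes at an unadjusted p under 0.05, against 4.22% of all genes. The smallest p of any member in the 8 comparisons was that of H1f0, the linker variant of differentiated cells. It read 166, 158, 152 and 140.3 CPM with 11-3F6xb12 and 107, 130.3, 131 and 139.9 with 13-3B5xb12, so the groups did not overlap but nearly met in replicate 4. The log2 difference was 0.28 ± 0.08 (SE, unadjusted p = 0.0018, adjusted p = 0.992). H3f3a also lay wholly higher with 11-3F6xb12, at 403 ± 17.5 against 363 ± 31.1 CPM, and 1.44% of all genes did so. The H3f3a groups nearly met as well, and 13-3B5xb12 replicate 1 was the lowest of these libraries. H2bc7, an H2B gene named because it was the 1 clustered gene wholly higher with 11-3F6xb12, had a log2 difference of 0.67 at few counts. The TMM factors were 0.896 and 0.906 in 11-3F6xb12 replicates 1 and 2 and 1.04 and 1.05 in 13-3B5xb12 replicates 3 and 4. With library totals alone the groups overlapped for H1f0, H3f3a and H2bc7, so these separations depend on the scaling. Without 13-3B5xb12 replicate 1, a library that stood apart, the H1f0 difference was 0.20.

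With the replicate number as a block in the fit, again 0 clustered genes and 0 variants were called in the 8 comparisons, where 0.0137% of all genes were called for 11-3F6xb12 against agrin, 0.0205% for 11-3F6xb12 against control and 0.0342% for 11-3F6xb12 against 13-3B5xb12. At an unadjusted p under 0.05 the block gave 17 of 56 clustered genes for agrin against control, all higher (3.98% of all genes), and 11 for bivalent 13-3B5 against control, all higher (3.96%). It gave 2 for bivalent 13-3B5 against agrin (3.01%), 13 for 13-3B5xb12 against agrin, 12 of them lower (5.02%), and 5 for 11-3F6xb12 against agrin, 4 of them lower (4.83%). The antibodies against control gave 4 each (3.17% for 13-3B5xb12 and 4.64% for 11-3F6xb12), and the antibodies against each other gave 3 (6.19%).

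In the order of the comparisons as plotted, 0 clustered genes lay wholly below the other group, against 0.959%, 0.897%, 1.22%, 1.26%, 1.24%, 0.822%, 1.08% and 1.27% of all genes. H2aw lay wholly above agrin with 13-3B5xb12 as well, where 1.05% of all genes did, and 0 clustered genes did so with 11-3F6xb12, where 1.66% of all genes did.

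Of the abundant members, H1f0 and H2bc4 had differences of up to 0.28, given above. Some of the 3 most abundant clustered genes per family had larger ones. H2ac15 reached 0.47 and H2bc3 0.34 (agrin minus control), and H3c6 reached 0.40 (bivalent 13-3B5 minus control). H2ac4 reached 0.50 (11-3F6xb12 minus 13-3B5xb12) and H2bc6 -0.36 (13-3B5xb12 minus agrin), and H3c11 is given above. The SE of these 5 genes were 0.16 to 0.30. Smaller differences were found for H1f2, H4c8 and the H3.3 genes. H1f2 had 150 ± 18.4 CPM in the control and 148 ± 10.7 to 160 ± 14.3 in the other groups, and its 8 log2 differences lay between -0.07 and 0.11 with an SE of 0.10. H4c8 had 55.4 ± 12.2 CPM in the control and 57.9 ± 9.93 to 60.5 ± 8.80 elsewhere, with differences between -0.06 and 0.13 and an SE of 0.15. H3f3a differences lay between -0.09 and 0.15 and those of H3f3b between 0.01 and 0.17, each with an SE of 0.08. H2az1 differences lay between -0.19 and 0.18 and those of H2aj between -0.20 and 0.12. H2ax, which carries the stem-loop, ranged from -0.36 for 11-3F6xb12 minus agrin to 0.48 for agrin minus control, with an SE of 0.25 to 0.26 and no unadjusted p under 0.05.

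A second question was whether histone genes differed between the sets of libraries that carry the same replicate number, whatever the treatment. The test was a quasi-likelihood F-test of the 3 replicate-number terms beside treatment, in the same 20 libraries. Clustered genes passed it in 11 of 56 cases (19.6%), against 7.19% of all 14605 genes, and variants in 0 of 8. All 11 were lower on average in replicates 3 and 4 than in 1 and 2. In that direction 4.36% of all genes were called, while 2.83% were called as higher. The adjusted p-values concern any difference among the 4 replicate numbers and not this division. Relative to replicate 1, H2ac8 had log2 values of 0.91, 0.08 and -0.55 in replicates 2, 3 and 4, and H3c1 had 0.51, -0.46 and -0.01. Replicates 3 and 4 are set against 1 and 2 here because earlier results of these data pointed to that division, so the size of that difference is a description. The clustered sum was 1003 ± 103 CPM in replicates 1 and 2 and 836 ± 85.4 CPM in 3 and 4 (SD, 10 libraries each), a ratio of 0.833. The count of 11 rested in part on single libraries: it was 5 without agrin replicate 2 or without agrin_11-3F6xb12 replicate 2, and 7 without replicate 4 of either group. In 3 of 5 treatments both libraries of 3 and 4 lay under both of 1 and 2, and in 0 they lay above.

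**Figure D4:**
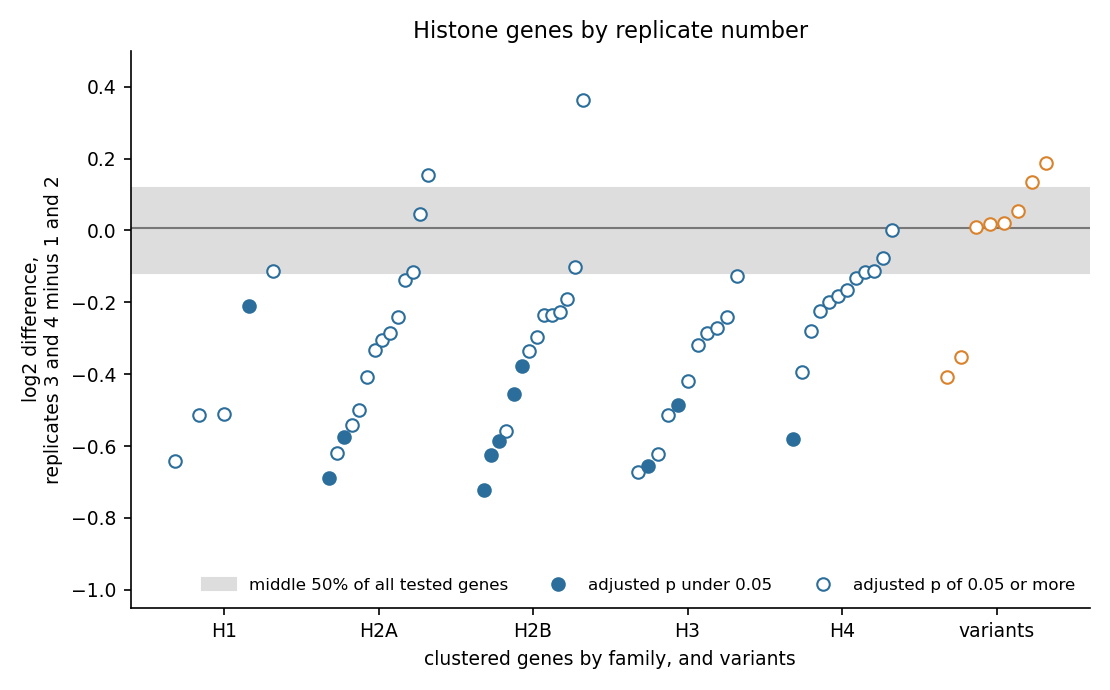
Log2 difference between replicates 3 and 4 and replicates 1 and 2 for the 56 clustered genes by family (blue) and the 8 variants (orange); filled points have an adjusted p under 0.05 in the replicate-number test, and the grey band spans the middle 50% of all genes tested. Of the clustered genes, 53 lie under 0 and 11 are filled, and 2 of 8 variants lie under 0 with 0 filled.

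Each clustered family had a negative median. Lower values in replicates 3 and 4 were found for 53 of 56 clustered genes (94.6%, against 48.2% of all genes), with a median log2 difference of -0.29 against 0.01 over all genes. The medians were -0.51 for H1, -0.32 for H2A, -0.32 for H2B, -0.42 for H3 and -0.17 for H4, and the called genes were 1 of 5 (20%), 2 of 14 (14.3%), 5 of 14 (35.7%), 2 of 11 (18.2%) and 1 of 12 (8.33%), against 7.19% of all genes, a share that H4 was near. Both libraries of 3 and 4 lay under both of 1 and 2 in 4 of 5 treatments for the summed H1 genes, in 3 for H2A and H2B, in 2 for H3 and in 1 for H4. The variants had a median of 0.02.

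H4c6 had the smallest p. Its lowest, median and highest CPM were 15.9, 21 and 28.8 in replicates 1 and 2 and 10.4, 12.7 and 23.2 in replicates 3 and 4, a log2 difference of -0.58 (adjusted p = 0.00063). Agrin replicate 3 was the highest library among replicates 3 and 4, and the sets were separate in 3 of 5 treatments. H3c2 had 8.11, 11.0 and 13.8 CPM against 3.89, 6.74 and 9.35 (-0.66, adjusted p = 0.001) and H2bc13 had 6.58, 10.2 and 12.8 against 2.97, 6.26 and 8.06 (-0.72, adjusted p = 0.0037). For both, control replicate 3 was the lowest of all libraries and the sets were separate in 4 of 5 treatments, as replicates 3 and 4 lay under 1 and 2 in at least 4 treatments for 5.48% of all genes.

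H1f2, the best counted clustered gene with 2688 to 3817 counts per library, changed by a smaller amount but in every treatment. It read 172, 157, 137 and 132 CPM in the control, 156, 167, 142 and 146 with bivalent 13-3B5, and 163, 179, 126 and 156 with agrin, in the order of the replicate numbers. With agrin and 13-3B5xb12 it read 154, 155, 132 and 151 CPM, and with agrin and 11-3F6xb12 169, 174, 157 and 142. Replicates 3 and 4 lay under 1 and 2 in 5 of 5 treatments, a log2 difference of -0.21 (adjusted p = 0.0077). When libraries were scaled by their total counts the difference was -0.10 and the adjusted p was 0.274, so this call depends on the scaling. H2bc14 fell by 0.38 (adjusted p = 0.0099). The other called genes, named because they complete the 11, were H2bc12, H2bc3, H2bc9, H3c1, H2ac4 and H2ac8, with log2 differences between -0.69 for H2ac8 and -0.46 for H2bc3 and adjusted p-values from 0.0141 to 0.0493.

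**Figure D5:**
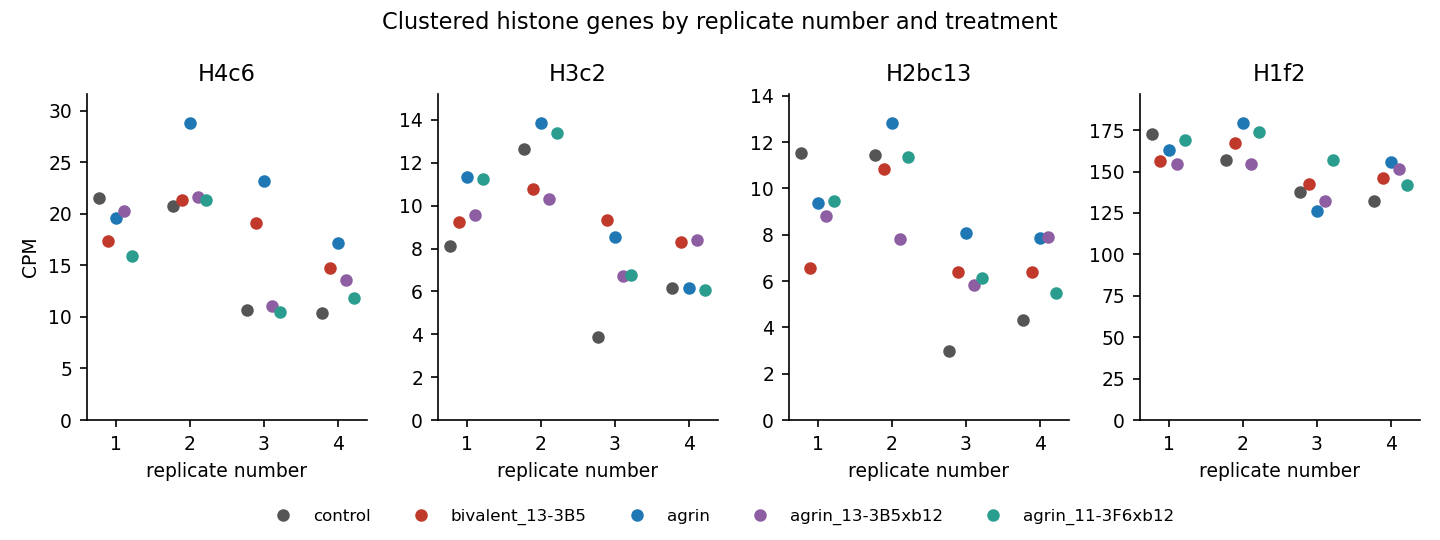
CPM of H4c6, H3c2, H2bc13 and H1f2 in each library by replicate number, coloured by treatment, with axes that start at 0. In H1f2 every library of replicates 3 and 4 lies under both libraries of replicates 1 and 2 of its own treatment, and in the other genes control replicates 3 and 4 are among the lowest.

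Of the 8 variants 0 were called, but 3 were with library totals and 2 without the 3 libraries that stood apart. With no filter on low counts, with the DESeq2 likelihood ratio test and without agrin replicate 3, 1 was called each time. The shares of all genes called under these settings are not given here. With library totals the median log2 difference over all genes was itself 0.12. H3f3b was 222, 245 and 265 CPM (lowest, median and highest) in replicates 1 and 2 and 229, 265 and 318 in 3 and 4, a log2 difference of 0.13 (adjusted p = 0.0957). In 4 of 5 treatments both libraries of 3 and 4 lay above both of 1 and 2, and the share of all genes that did so was not counted. H2az1 was 64.3, 84.8 and 106 CPM against 76.5, 96.7 and 107 (0.19, adjusted p = 0.20). H2ax was the variant closest to the clustered genes, at 7.49, 10.1 and 14.1 CPM against 5.73, 7.38 and 13.2 (-0.35, adjusted p = 0.535). H1f0 and H3f3a had differences of 0.01 and 0.05. The replacement share therefore shifted: H3.3 genes made up 51.4% ± 2.88 of the H3 level per kb in replicates 1 and 2 and 60.0% ± 5.45 in 3 and 4. The H1f0 share of H1 was 25.6% ± 2.81 and 29.6% ± 2.31, and the H2A.Z share of H2A was 29.9% ± 2.32 and 37.2% ± 3.62 (SD, 10 libraries each).

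Medians were negative in clustered genes of several kinds, while the share called differed. Among the 19 tested genes whose model ends within 100 bases of the stem-loop, 7 were called (36.8%, against 7.19% of all genes), with a median log2 difference of -0.39. Among the 17 whose model runs on for more than 300 bases, 2 were called (11.8%) with a median of -0.21. Among the 17 without a stem-loop in the model 1 was called (5.88%, under the share of all genes) with a median of -0.41. Genes that share no 150-base stretch had a median of -0.30 with 11 of 11 lower, and those that share some had -0.29 with 42 of 45 lower. Other genes chosen by length or by base composition had medians near 0: the 902 tested non-histone genes under 1000 bases had a median of 0.03 with 3.22% called, and the 3201 with a GC content over 55% had 0.02 with 7.25% called. The first set had a median GC content of 50.5% and the second a median length of 3264 bases. Clustered genes had 57.8% and 536.5 bases, and genes like them in both properties were not tested as a set.

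Other genes of the histone pathway were read from lists. Of 17 tested genes of histone mRNA processing, 0 were called (7.19% of all genes were), with a median log2 difference of 0.04. Slbp, the stem-loop binding protein, had 26.6 CPM on average and a difference of 0.05, Npat, the co-activator of clustered histone genes, had 27.7 CPM and 0.02, and Casp8ap2 and Lsm11, of the processing machinery, had 0.01 and 0.07. Of 26 histone chaperones 1 was called (3.85%, under the 7.19% of all genes): Hjurp, the chaperone of the centromeric H3 variant, fell by 0.29 (adjusted p = 0.0031). Most of this list went the other way, as 7 of 26 were lower (26.9%), with a median of 0.06. Asf1b and Chaf1b, which hand over newly made H3 and H4, had 0.22 and 0.17 with adjusted p-values of 0.373 and 0.868.

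The S phase and division list was mixed in direction. Of its 30 genes 3 were called (10%, near the 7.19% of all genes) and 13 had lower values in replicates 3 and 4, with a median of 0.03 and a summed level in replicates 3 and 4 that was 1.02 times that in 1 and 2. Mcm6, of the replicative helicase, and Rrm2, a subunit of ribonucleotide reductase, rose by 0.23 and 0.26 (adjusted p = 0.0036 and 0.0495), and Ccnb1, the mitotic cyclin, fell by 0.67 (adjusted p = 0.0037). Pcna, the replication clamp, had 0.03, and the division markers Mki67 and Top2a had -0.44 and -0.31 with adjusted p-values of 0.377 and 0.421. Of the other RNAs known to lack a poly(A) tail, 6 of 14 were in the table and 0 of 5 tested were called. Their summed level in replicates 3 and 4 was 0.852 times that in 1 and 2. Both libraries of 3 and 4 lay under both of 1 and 2 in 2 treatments, and above them in 0. The highest sums were 9170 CPM in agrin_13-3B5xb12 replicate 1 and 8074 CPM in control replicate 2. By gene, 3 of the 5 were lower, with a median of -0.06. Malat1, a nuclear RNA of that kind, had a difference of -0.22 (adjusted p = 0.605), and Rpph1, an RNase P RNA, had 0.0964 CPM on average and was not tested.

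Several properties of the libraries moved with the replicate number. Mitochondrial genes held 35.1% ± 2.7 of counts in replicates 1 and 2 and 30.3% ± 1.58 in 3 and 4, and were separate in 4 of 5 treatments. For the marker lists that follow, the shares over all genes tested were 48.2% lower in replicates 3 and 4 and 4.36% called as lower. An unadjusted p under 0.05 was found for 17.3% of all genes. Myotube markers were detected in every library, with 8 of 10 lower in replicates 3 and 4 (median -0.11), 3 of 10 called as lower in replicates 3 and 4 (Ckm, Tnnt3 and Ttn) and summed levels of 15110 to 17101 CPM in 1 and 2 and 13016 to 16043 in 3 and 4. Of the 7 tested myoblast or reserve cell markers 5 were lower (median -0.16) and 5 had an unadjusted p under 0.05; Id3 fell and Cdh15, the most abundant, rose, and the summed levels were 521 to 617 and 536 to 670 CPM. Of the 6 tested fibroblast markers 5 were lower (median -0.21) and Col3a1 fell, with summed levels of 4910 to 5485 and 4263 to 5165 CPM. Called genes were 2 of the 7 myoblast or reserve cell markers (28.6%) and 1 of the 6 fibroblast markers (16.7%), against 7.19% of all genes. Blood and macrophage markers summed to at most 2.09 CPM in any library. The part of these and of the S phase and division genes in the histone difference was not tested.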

How the data were processed

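Total RNA depleted of ribosomal RNA was sequenced as stranded libraries, per the labels' protocols. The deposited table holds whole-number counts per gene, made by the authors; the submitters' processing notes name GRCm38, Trim Galore 0.6.6, cutadapt 2.10, STAR 2.7.6a, HTSeq 0.12.4 and DESeq2 1.32.0, without roles or settings, so the treatment of reads with several matches and the strand setting are not given in the sources used here. Of 26722 table genes, 26667 identifiers were found in GENCODE M21.

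Counts were fitted with edgeR 4.0.16 in R 4.3.3 (filterByExpr at its settings of 10 counts per gene and 15 in total, TMM factors, robust quasi-likelihood fit over all 20 libraries, 15 residual degrees of freedom). F-tests were two-sided, with Benjamini-Hochberg adjustment over 14605 genes and a threshold of 0.05. The p-values of treatment comparisons come from this model unless the replicate block or DESeq2 1.42.0 is named. The replicate number was tested with 3 degrees of freedom beside treatment, in a second edgeR fit with replicate terms (12 residual). That second fit also gave the treatment values with the replicate block. The replicates are labelled biological, with no statement that they came from separate cultures; p-values measure the spread between these libraries. Total counts were 18424881 to 23343903, so a gene with few counts has a large error.

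Replicate numbers were checked for pairing by the correlation of deviations from group means: 26 of 32 same-number pairs were over 0.1 (range 0.00824 to 0.384), and every pair was in 4 of 8 comparisons. The fit without the block is given first.

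Per length, CPM was divided by the summed exonic length in M21. Scripts were tested on simulated data. The members and gene lists were chosen with earlier results of these data known. Genes are named as follows: the 3 most abundant clustered genes by CPM in each family, every tested variant, the member with the smallest p in each comparison, for the replicate number the 5 clustered and 3 variant genes with the smallest p, and Slbp, Npat, Casp8ap2, Lsm11, Asf1b, Chaf1b, Pcna, Mki67, Top2a, Rpph1 and Malat1. Any others, such as genes named because groups did not overlap and the called genes of the lists, were chosen after their values were seen. Promoter windows and motif positions came from RefSeq (GRCm38.p6), with 71 members matched. Protein sequences were not used here. Alternatives were other scaling, other filters, DESeq2, the replicate block and leaving out libraries; 2 of them (library totals, and leaving out 3 libraries) were added after seeing the data.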

Additional observations from a re-analysis of the deposited data

Results flagged for a closer look

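In each treatment group of 4 libraries, the library farthest from the others was examined for the sums and the named members. In 8 of 210 groups 1 library stood apart by Dixon's 95% criterion, where chance gives about 5% of groups, or 10.5. The summed clustered H4 genes were 324 CPM in control replicate 1 and 236 to 242 CPM in the other controls, and H4f16 was 44.7 CPM in the same library against 35.6 to 36.5. H1f2 was 132 CPM in agrin_13-3B5xb12 replicate 3 against 151 to 155, and H1f4 was 58.5 CPM in agrin replicate 3 against 65.6 to 66.8. H2bc13 was 10.8 CPM in bivalent_13-3B5 replicate 2 against 6.38 to 6.58, and H2aw was 5.15 CPM in agrin_13-3B5xb12 replicate 4 against 3.01 to 3.28. Of the variants, H3f3a was 424 CPM in bivalent_13-3B5 replicate 3 against 393 to 395, and H3f3b was 318 CPM in agrin_11-3F6xb12 replicate 4 against 255 to 262.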

How the results depend on the processing

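In the treatment comparisons the count of called clustered genes and variants was 0 in all 240 settings. For the replicate number, the 11 called clustered genes became 24 with no filter on low counts and 5 to 16 when 1 library was left out (16 without agrin_13-3B5xb12 replicate 2). The 0 called variants became 1 with no filter, 3 with library totals, 1 with the DESeq2 likelihood ratio test and 2 without the 3 libraries that stood apart, and ranged from 0 to 1 when 1 library was left out (1 without agrin replicate 3). The shares of all genes called under these settings are not given here, and the cause was not tested. The DESeq2 test called 15 clustered genes, all 11 among them, library totals 8, all among the 11, and the data without the 3 libraries 15, of which 8 were among the 11. With library totals the median of all genes by replicate number was 0.12 and that of clustered genes -0.18, a gap of -0.30 as with TMM factors, and H1f2, H2ac4 and H2bc3 lost their call. No called gene changed direction.

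The replicate block changed no histone call in a treatment comparison: the count stayed at 0 for clustered genes and for variants.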

Other observations

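Pseudogene and antisense entries were counted as well. Of the 10 entries 6 were tested, 0 were called in any treatment comparison and 0 by replicate number, where their median log2 difference between replicates 3 and 4 and replicates 1 and 2 was -0.19. H2af-ps2, a processed pseudogene on chromosome 13, held most of their counts and lay between 69.8 and 135 CPM per kb.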
